A study of Mus musculus with 9 samples.

Results

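The genes described here are 10 markers of the trophectoderm, the outer epithelium of the blastocyst that goes on to form the placenta: the transcription factors Cdx2, Eomes, Gata2, Gata3, Tfap2a, Tfap2c and Elf5, and the simple keratins Krt8, Krt18 and Krt19. They were chosen by gene name and not by a cut on their values, though with earlier results of these data known. Of the 10, 10 were found among the 38940 genes of the deposited table. Of these, 7 reached a mean level of 1 FPKM over the 9 libraries and were tested, while Cdx2, Gata3 and Elf5 stayed under it and are described from the reads behind their values. FPKM, fragments per kilobase of transcript scaled by sequencing depth, is a level per transcript length.

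RNA had been sequenced from mouse embryonic stem cells in 3 groups of 3 libraries. Control cells were Yap f/f Taz f/f, with both genes floxed and not deleted. Taz KO cells were Yap f/f Taz ∆/∆, and Yap/Taz double KO cells, called double KO below, were Yap ∆/∆ Taz ∆/∆. The genotype field of the double KO samples repeats that of Taz KO (Yapfl/fl/Taz-/-), so groups were taken from the titles and descriptions. Every group was grown on fibronectin in N2B27 medium with 4 ng/ml of Lif, 0.4 µM of the MEK inhibitor PD0325901 and 3 µM of the GSK3 inhibitor CHIR99021. Cre-ERT2, driven by the ubiquitous CAG promoter, had been inserted with a piggyBac transposon, and 500 nM 4-OHT induced deletion. The labels state neither whether control cells received 4-OHT, nor whether a line was 1 clone, nor whether libraries of a group came from separate cultures, so p-values measure only how much these libraries vary, which may be technical.

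In the early embryo, YAP and TAZ (the product of Wwtr1) enter the nucleus of outer cells, bind TEAD4 and switch on Cdx2 and Gata3, which set up the trophectoderm. In inner cells the Hippo kinases hold YAP and TAZ in the cytoplasm, and these genes stay off. Embryonic stem cells derive from the inner cells and normally form little trophectoderm. Keratins assemble as pairs of a type II chain, such as keratin 8, with a type I chain, such as keratin 18 or 19, and these simple keratins are the first intermediate filaments of the trophectoderm.

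The libraries held 19.1 to 24.0 M reads recovered from the table. Yap1 was measured at 18.4 ± 0.573 FPKM in control (SD, n = 3 for each group here and below), 18.3 ± 0.346 in Taz KO and 4.25 ± 0.334 in double KO. That is a fall of 2.00 on the log2 scale in double KO against control (limma, adjusted p = 3.75e-06). Wwtr1 was at 12.1 ± 0.847, 10.8 ± 1.58 and 13.9 ± 0.772 FPKM, so the level of the whole transcript does not check the labelled deletion of Taz. All 10 markers of embryonic stem cells reached 1 FPKM in each group, with Pou5f1, which encodes OCT4, at 455, 420 and 399 FPKM.

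Loss of Yap and Taz together went with higher, not lower, levels of 4 of the 7 tested genes. In double KO against control, Gata2, Tfap2c, Tfap2a and Krt8 rose and none of the 7 fell, by a limma fit on log2(FPKM + 0.5) with Benjamini-Hochberg adjustment over 11674 genes and a threshold of 0.05. Over all tested genes 25.3% passed in this comparison, with 12.4% rising and 12.9% falling. The median log2 fold change of the 7 was 0.56, beside -0.02 over all tested genes. In Taz KO against control 0 of the 7 passed, both by limma and by voom on the recovered reads. Over all tested genes voom called 176, and limma called 1.28% (0.72% rising and 0.565% falling). Of the 7, 1, Eomes, had an unadjusted limma p under 0.05 (0.0455), as did 1498 of the 11674 genes tested. The median of the 7 was 0.15, beside 0.01 over all genes. In double KO against Taz KO, Gata2, Tfap2c and Krt8 rose and none fell, beside 13.9% of all genes called (6.42% rising and 7.45% falling), with medians of 0.47 and -0.04. Among the 7, values of the compared libraries stayed apart for 5 genes in double KO against control, 2 in Taz KO against control and 4 between the knockouts, as was so for 45.6%, 18.7% and 30.6% of all tested genes. The 3 comparisons share libraries, so their counts are not independent. These were bulk samples, in which more cells expressing a gene and more RNA of it per cell cannot be told apart. Fold changes on the log2(FPKM + 0.5) scale understate the change of genes at low levels.

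**Figure D1:**
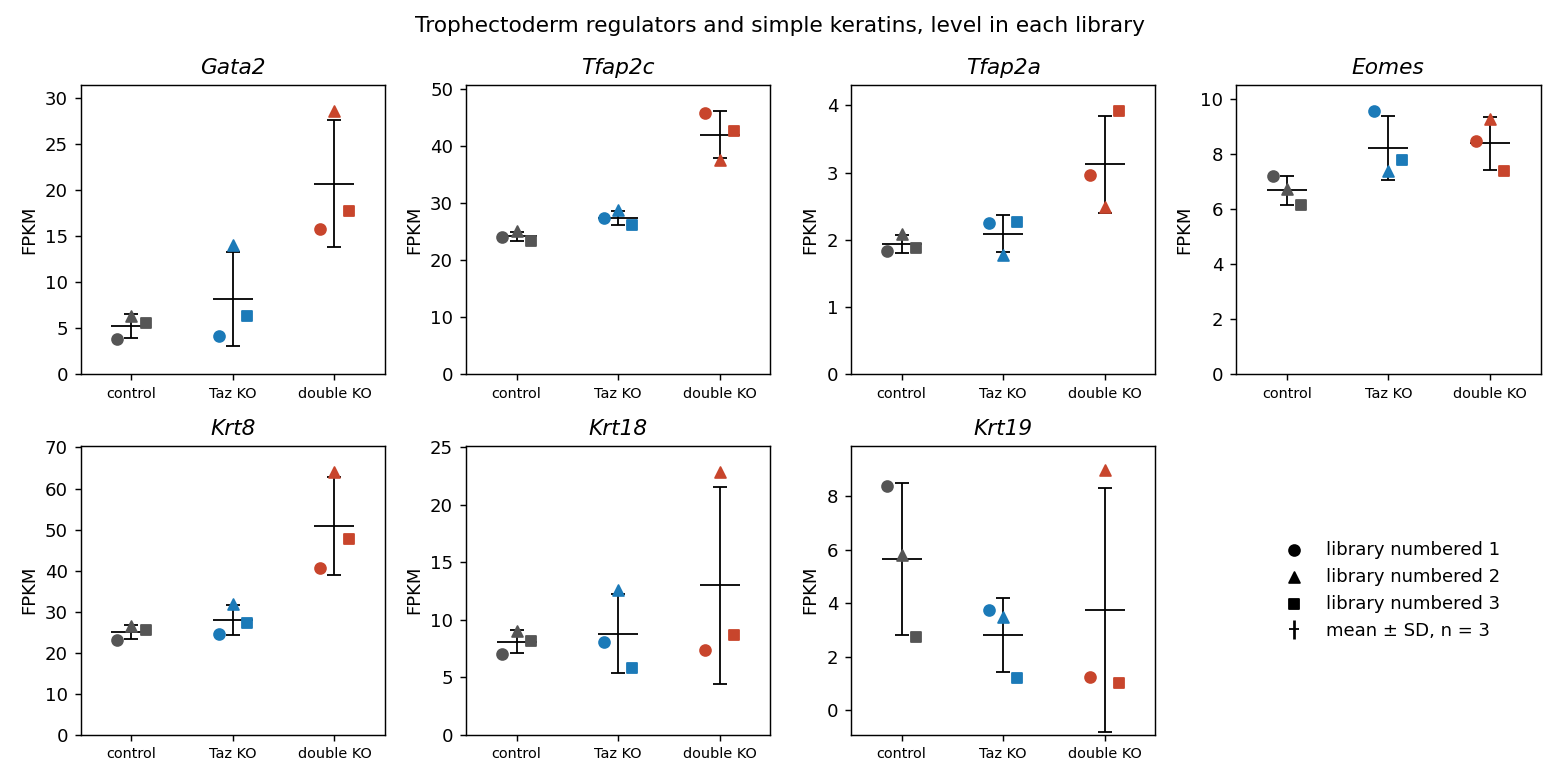
Level of each of the 7 tested genes in FPKM (y axis) in each library, by group (x axis); symbols mark the library number and bars the mean ± SD of 3 libraries. Double KO values of Gata2, Tfap2c, Tfap2a and Krt8 lie above all control values, while those of Krt18 and Krt19 are spread from 7.40 to 22.8 and from 0.989 to 9.004 FPKM.

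By level, the 10 genes fell into a group that stem cells of every genotype transcribed and a group near 0. In control, Krt8 (25.04 ± 1.81 FPKM) and Tfap2c (24.2 ± 0.855) stood highest and overlapped. Krt18 (8.09 ± 1.01) and Eomes (6.68 ± 0.531) followed, also overlapping, then Krt19 (5.65 ± 2.85) and Gata2 (5.25 ± 1.28), whose values overlapped too, and Tfap2a (1.93 ± 0.135). In double KO the order was Krt8 (50.9 ± 11.9), Tfap2c (42.0 ± 4.12), Gata2 (20.7 ± 6.89), Krt18 (12.98 ± 8.57), Eomes (8.38 ± 0.949), Krt19 (3.74 ± 4.56) and Tfap2a (3.12 ± 0.727). Within that order the neighbours overlapped with the exception of Tfap2c and Gata2: the lowest Tfap2c library, at 37.6, was above the highest Gata2 library, at 28.6. Gata2 thus moved from below Krt18 and Eomes in mean level to above both. Cdx2, Gata3 and Elf5 were under 1 FPKM in each library.

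Gata2 encodes a zinc finger factor that acts with GATA3 in trophectoderm and its trophoblast descendants, and is also known from blood stem cells. Control libraries 1, 2 and 3 held 3.83, 6.31 and 5.59 FPKM, Taz KO libraries 4.20, 13.998 and 6.32 FPKM, and double KO libraries 15.8, 28.6 and 17.7 FPKM. The 3 double KO libraries were above every other library, and the Taz KO range took in 2 of the control values. The double KO mean was 3.95 times that of control, a log2 fold change of 1.86 (SE 0.39, 95% interval 0.97 to 2.76, adjusted p = 0.0102), and remained past the threshold without any 1 of the 9 libraries. Against Taz KO the difference was 1.41 (0.52 to 2.30, adjusted p = 0.0465). It passed in 1 of 9 fits that left out a library, the one without Taz KO library 2, with adjusted p reaching 0.154 without Taz KO library 1. Taz KO against control gave 0.46 (-0.44 to 1.35, adjusted p = 0.793), an interval that holds both no change and a log2 rise of 1.

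The gene lies on chromosome 6 (88193891 to 88207032, plus strand, GRCm38), overlapping no other annotated gene. The median over the 495 tested genes of this chromosome was 0.19 on the log2 scale in double KO and 0.21 in Taz KO against control, beside -0.02 and 0.01 over all genes, and 28.5% of them rose in double KO. Its part in the change of Gata2 was not tested. The chromosomes of the other 9 genes had medians between -0.09 and -0.04 in double KO.

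The promoters of Gata2 and of the neighbouring genes Krt8 and Krt18 are shown because Gata2 and Krt8 were the 2 genes with the largest rise and Krt18, transcribed beside Krt8, was not called. The letters come from RefSeq promoters on GRCm38.p6, which held 8 of the 10 genes in 11 entries (Tfap2c and Krt19 were not matched). Printed is the stretch before the start site that lies outside annotated exons. Capitals mark matches to AGATAA, the core bound by GATA factors, or to GCCNNNGGC, the palindrome bound by AP-2 factors such as TFAP2A and TFAP2C.
Gata2, first start, chr6:88193641-88193890, plus strand: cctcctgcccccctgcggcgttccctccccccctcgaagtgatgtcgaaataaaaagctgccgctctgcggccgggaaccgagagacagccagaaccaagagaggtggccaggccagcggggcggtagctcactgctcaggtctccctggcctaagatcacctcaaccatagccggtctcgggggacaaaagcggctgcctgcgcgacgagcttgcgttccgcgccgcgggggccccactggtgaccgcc
Krt8, chr15:102004483-102004592, minus strand: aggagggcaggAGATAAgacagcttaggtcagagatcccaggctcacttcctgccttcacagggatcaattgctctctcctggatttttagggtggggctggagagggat
Krt18, chr15:102027966-102028179, plus strand: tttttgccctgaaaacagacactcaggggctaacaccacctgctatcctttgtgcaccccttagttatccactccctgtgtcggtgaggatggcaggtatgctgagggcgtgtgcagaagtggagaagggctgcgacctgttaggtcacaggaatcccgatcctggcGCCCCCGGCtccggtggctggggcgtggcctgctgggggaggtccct

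Searched on both strands of windows from 250 bases before to 50 bases after each start, the TEAD core CATTCC was in 2 of the 11 entries, at -120 from the second start of Gata2 and at -173 from the first start of Elf5, both inside annotated exons. Among 32851 promoters of that length 14.7% held it. AGATAA was in 1 of 11, at -239 of Krt8, beside 11.2% of all promoters. GCCNNNGGC was in 4 of 11, in Cdx2, Gata3, Krt18 and the second start of Gata2, beside 16.6%. The AP-1 motif TGANTCA was in 0 of 11, beside 7.81%. The stretch of Gata2 printed above holds none of the 4 motifs. A match describes letters and not a bound site, and enhancers were not searched.

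Tfap2c, an AP-2 factor needed for trophectoderm and also active in naive stem cells and germ cells, showed the tightest change. Control libraries held 24.1, 25.03 and 23.3 FPKM, Taz KO libraries 27.3, 28.7 and 26.2, and double KO libraries 45.8, 37.6 and 42.6. The 3 groups did not overlap at any step. In double KO the gene rose 1.74-fold in mean level over control (log2 fold change 0.78, SE 0.09, 95% interval 0.59 to 0.98, adjusted p = 0.000578). It rose over Taz KO by 0.60 (0.41 to 0.80, adjusted p = 0.00456). Both calls held in 9 of 9 fits with a library left out. In Taz KO the difference of 0.18 (-0.02 to 0.37, adjusted p = 0.447) did not pass, although each Taz KO library was above each control library. Library by library, the double KO level was 1.90, 1.503 and 1.83 times that of the control library with the same number.

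Tfap2a, the AP-2 paralogue found in trophectoderm, ectoderm and neural crest, stood at 1.84, 2.09 and 1.87 FPKM in control, 2.25, 1.77 and 2.26 in Taz KO, and 2.97, 2.48 and 3.91 in double KO. The double KO values did not overlap those of either other group. The rise over control was 0.56 on the log2 scale (0.20 to 0.91, adjusted p = 0.0306). The call was lost without any 1 of the 3 control libraries (adjusted p = 0.102, 0.0543 and 0.0837 without control 1, 2 and 3), without double KO library 1 (0.0682) or 3 (0.0868), with no filter on low values (0.0715) and with quantile normalization (0.0742). Against Taz KO the difference was 0.47 (0.12 to 0.82, adjusted p = 0.0784), which passed with the replicate number as a block (adjusted p = 0.0238). Some genes annotated on the opposite strand overlap it (Gm47061, Gm26688 and Gm47067), and whether counting used strand is not given in the sources used here.

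Eomes, a T-box factor of trophectoderm that is also turned on in mesoderm and endoderm, held 7.20, 6.71 and 6.14 FPKM in control, 9.56, 7.37 and 7.76 in Taz KO, and 8.49, 9.28 and 7.39 in double KO. Both knockouts lay above control without overlap, and they overlapped each other. Neither difference from control passed: 0.30 in double KO (0.04 to 0.57, adjusted p = 0.0912) and 0.28 in Taz KO (0.01 to 0.55, adjusted p = 0.371). With the replicate number as a block the double KO value passed (adjusted p = 0.0212). Double KO and Taz KO differed by 0.03 (-0.24 to 0.30, adjusted p = 0.897). An antisense gene, Gm33460, overlaps Eomes.

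**Figure D2:**
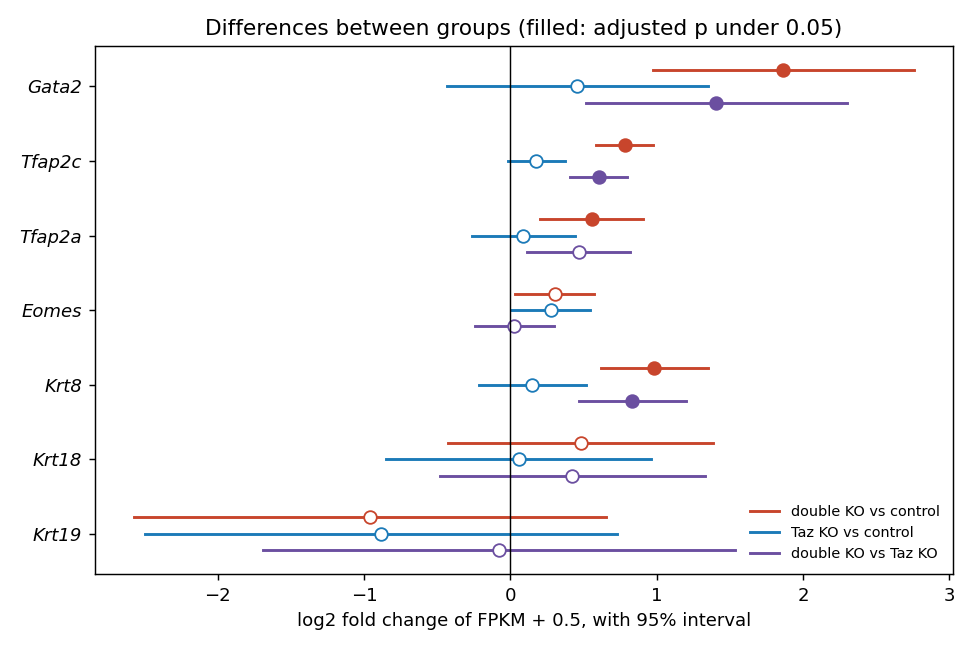
Log2 fold change with its 95% interval (x axis) for each of the 7 tested genes (y axis) in the 3 comparisons, coloured by comparison; filled points passed the adjusted threshold of 0.05. The intervals of Gata2, Krt8, Tfap2c and Tfap2a in double KO against control lie above 0, from 0.20 or higher, and that of Krt19 runs from -2.57 to 0.65.

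Krt8, the type II chain of the simple epithelial filament, rose in double KO, while Krt18 and Krt19 were not called. Control libraries held 23.0, 26.5 and 25.6 FPKM, Taz KO libraries 24.6, 31.9 and 27.3, and double KO libraries 40.7, 64.0 and 47.8. Every double KO library was above every other library, and Taz KO overlapped control. The double KO mean was 2.03 times that of control (log2 fold change 0.98, SE 0.16, 95% interval 0.62 to 1.35, adjusted p = 0.00348), a call that held in 9 of 9 fits with a library left out. Against Taz KO the rise was 0.83 (0.47 to 1.20, adjusted p = 0.0138), lost without Taz KO library 1 (adjusted p = 0.0640) or library 3 (0.0508) and when control was left out of the fit (0.0510). In Taz KO against control it was 0.15 (-0.22 to 0.52, adjusted p = 0.864). Krt8 lies on chromosome 15 (101996698 to 102004482, minus strand), where the antisense gene Gm36026 overlaps it.

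Krt18, the usual type I partner of keratin 8, lies next to it on chromosome 15 (102028180 to 102032027, plus strand). Its levels were 7.04, 9.06 and 8.17 FPKM in control, 8.05, 12.6 and 5.79 in Taz KO, and 7.40, 22.8 and 8.70 in double KO. A single double KO library, library 2, lay outside the range of the other groups. The difference from control was 0.48 (-0.42 to 1.38, adjusted p = 0.403), and without that library -0.0038. Neither that comparison nor Taz KO against control (0.06, -0.85 to 0.96, adjusted p = 0.988) nor double KO against Taz KO (0.42, -0.48 to 1.33, adjusted p = 0.510) passed. The intervals are wide enough to hold the change of Krt8.

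Krt19, the smallest type I keratin and the other possible partner, varied most. It was at 8.41, 5.81 and 2.72 FPKM in control, 3.73, 3.49 and 1.20 in Taz KO, and 1.23, 9.004 and 0.989 in double KO. Groups overlapped in each comparison, and the highest and lowest of the 9 libraries were both double KO. Against control the difference was -0.96 (-2.57 to 0.65, adjusted p = 0.348) in double KO and -0.89 (-2.50 to 0.73, adjusted p = 0.765) in Taz KO, and between the knockouts -0.08 (-1.69 to 1.54, adjusted p = 0.956). Without double KO library 2 the fall against control became -1.82 and passed (adjusted p = 0.0321). Compared library by library, Taz KO was at 0.443, 0.601 and 0.442 times the control library of the same number, and double KO at 0.147, 1.55 and 0.364 times.

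The balance of the chains was read as the ratio of Krt8 to Krt18 in FPKM. It was 3.27, 2.92 and 3.14 in control, 3.06, 2.54 and 4.72 in Taz KO, and 5.51, 2.80 and 5.49 in double KO. In double KO, libraries 1 and 3 were above every other library and library 2 lay below all 3 control libraries. The group means of 3.11 ± 0.174, 3.44 ± 1.14 and 4.60 ± 1.56 gave no small p in exact two-sided permutation tests (p = 0.4 for double KO and 0.9 for Taz KO against control, and 0.3 between the knockouts, where 0.1 is the smallest p that 3 against 3 can give). Krt8 over the sum of Krt18 and Krt19 was 1.88 ± 0.441, 2.66 ± 1.08 and 3.89 ± 1.63 (exact permutation p = 0.2 for double KO and 0.4 for Taz KO against control). Krt18 over Krt19, the balance of the type I chains, was 1.80 ± 1.102, 3.53 ± 1.33 and 5.77 ± 3.14 (exact permutation p = 0.2 for either knockout against control). Benjamini-Hochberg adjustment over the 9 tests of 3 ratios left each at 0.45 or above.

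**Figure D3:**
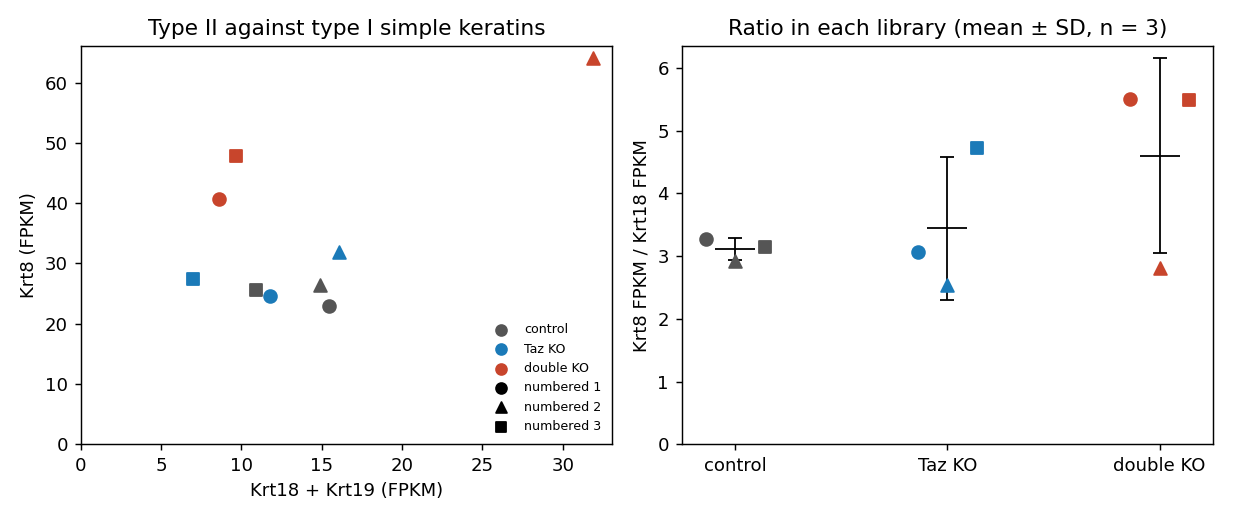
Left, Krt8 in FPKM (y axis) against the sum of Krt18 and Krt19 in FPKM (x axis), 1 point per library, with group by colour and library number by symbol; right, the ratio of Krt8 to Krt18 (y axis) by group (x axis), with bars for the mean ± SD of 3 libraries. The Krt8 to Krt18 ratio of double KO libraries 1 and 3 is 5.51 and 5.49, and that of library 2 is 2.80, under all control values.

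Part of the spread followed the library number. The library numbered 2 was the highest of its group in all 3 groups for Gata2, Krt8 and Krt18, as it was for 19.6% of tested genes, and the lowest in all 3 groups for Cdx2. Over the mean of libraries 1 and 3, library 2 was 1.34, 2.66 and 1.71 times as high for Gata2 in control, Taz KO and double KO, 1.09, 1.23 and 1.45 times for Krt8, and 1.19, 1.82 and 2.84 times for Krt18. For Krt19 these ratios were 1.04, 1.42 and 8.10. What the number stands for is not said in the labels, and its part in these levels was not tested. Without the 3 libraries numbered 2, an alternative chosen after seeing the data, the same 4 genes rose in double KO against control: Gata2 by 1.75 (adjusted p = 0.00226), Krt8 by 0.85 (0.00186), Tfap2c by 0.88 and Tfap2a by 0.73 (0.00764). Krt18 was then at 0.08, and Krt19 at -1.74 (adjusted p = 0.0514).

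Cdx2, Gata3 and Elf5 were represented by few reads. Cdx2, the caudal-type homeobox factor that heads the programme, had 11, 7 and 12 reads in control, 4, 0 and 5 in Taz KO, and 12, 8 and 33 in double KO. Each Taz KO library was under each library of the other groups, while control and double KO overlapped and 1 double KO library supplied 33 of its 53 reads. In FPKM this was 0.206 ± 0.0668, 0.0671 ± 0.0614 and 0.378 ± 0.320. With reads summed and scaled for depth, Taz KO had 0.310 times the reads of control (exact 95% interval 0.130 to 0.671), and double KO 1.77 times (1.11 to 2.87). These intervals cover counting error and no spread between libraries. The exact permutation p over libraries was 0.1 for Taz KO and 0.6 for double KO against control, and with no filter on low values limma gave adjusted p = 0.826 and 0.532. The 0 reads of Taz KO library 2 allow a level of up to 0.0577 FPKM, the worth of 3 reads there.

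Gata3, which acts downstream of TEAD4 beside Cdx2, had 7, 7 and 6 reads in control, 1, 1 and 1 in Taz KO, and 1, 1 and 0 in double KO. Both knockouts were below all 3 control libraries, and in the same low range as each other. Control had 6.44 times the reads of Taz KO per depth (exact 95% interval 1.91 to 33.9, counting error only) and 9.99 times those of double KO (2.43 to 88.2). With no filter on low values, limma put Gata3 past the threshold in Taz KO (adjusted p = 0.0407) and in double KO (0.00527). In that fit 146 and 2671 of 24621 genes passed. All Gata3 values lie below the 0.5 FPKM added before the log, and the fit takes no account of counting error at so few reads. The exact permutation p was the smallest possible, 0.1, in both comparisons. Mean levels were 0.0770, 0.0120 and 0.00734 FPKM. Several annotated genes overlap Gata3 (Gm13256, 4930412O13Rik and 9230102O04Rik), 1 of them on its own strand. Elf5, an ETS factor that maintains trophoblast stem cells and is silenced in embryonic stem cells, had 0, 1 and 0 reads in control, 0, 3 and 0 in Taz KO, and 2, 1 and 2 in double KO, too few for a direction.

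**Figure D4:**
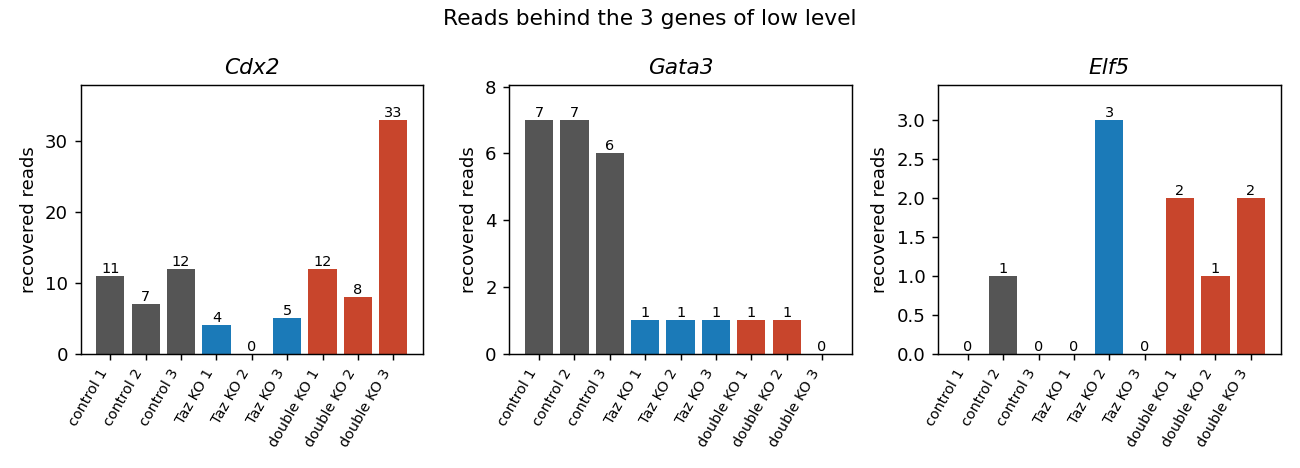
Reads recovered (y axis) for Cdx2, Gata3 and Elf5 in each library (x axis, coloured by group), without scaling for depth. Gata3 has 6 or 7 reads in each control library and 0 or 1 in each knockout library, and Cdx2 reaches 33 reads in 1 double KO library.

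Other genes of the trophectoderm and of trophoblast stem cells did not move one way. Of 18 listed, 11 were tested. In double KO against control 2 rose and 4 fell (4 and 5 with the replicate number as a block), with a median log2 fold change of -0.05 beside -0.02 over all genes. With the block, 2828 of the 11674 tested genes rose and 3284 fell in double KO against control. In Taz KO 908 rose and 473 fell. Block counts of this and later lists are to be read beside these. Values given without mention of the block are from the fit without it. Aqp3, the water channel of the blastocyst's outer cells, rose from 18.0 ± 3.19 to 93.2 ± 30.1 FPKM (2.31, adjusted p = 0.00114). Cldn4, a tight junction claudin, rose from 106 ± 11.3 to 256 ± 71.4 FPKM (1.24, adjusted p = 0.00493). Id2, an inhibitor of bHLH factors enriched in early outer cells, fell from 6.89 ± 0.431 to 0.742 ± 0.110 FPKM (-2.58, adjusted p = 9.66e-06). Ets2, Ascl2 and Atp1b1 fell by 0.97, 0.78 and 0.51. In Taz KO against control Id2 (-1.79, adjusted p = 0.000568) and Ascl2 (-0.95, adjusted p = 0.0463) fell and none rose (2 rose and 3 fell with the block). Tead4, which is also in the list of Cdx2 regulators and lies on chromosome 6, was not called without the block. This DNA-binding partner of YAP was at 19.5, 24.3 and 20.3 FPKM in control, Taz KO and double KO. With the block, its higher level in Taz KO passed against control (adjusted p = 0.0214) and against double KO (0.0156).

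Placental differentiation genes were mostly at or near 0: of 14, 5 were at 0 in all libraries (Prl3d1, Prl3b1, Prl2c2, Tpbpa and Ctsq, products of trophoblast giant cells, spongiotrophoblast and labyrinth) and 4 were tested. Those 4 rose in double KO against control, with a median of 1.29: Peg10, an imprinted gene derived from a retrotransposon (1.38, adjusted p = 0.00310), the X-linked homeobox genes Rhox6 (1.33, adjusted p = 0.000578) and Rhox9 (1.26, adjusted p = 0.000670), and the imprinted Phlda2 (0.68, adjusted p = 0.0347). Rhox9 averaged 2.31 FPKM in double KO, while its means of 0.671 (control) and 0.678 (Taz KO) lay under 1 FPKM. Its double KO level alone brought Rhox9 past the filter, which favours a rise. The count of 4 and the median of 1.29 include this gene. Peg10 also lies on chromosome 6. In Taz KO none of the 4 passed (1 rose and 1 fell with the block), with Peg10 at 2.21 ± 0.475 FPKM against 4.76 ± 0.870 in control and 13.5 ± 4.35 in double KO. The other 5 genes of the list were under the level tested.

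Among the relatives of the 7 factors, 8 of 15 were tested, and 2 rose in double KO against control: Cdx1 (0.82, adjusted p = 0.00770), the homeobox paralogue of Cdx2, with means of 11.96 and 21.8 FPKM, and Elf1 (0.79), on chromosome 14, whose tested genes had a median of 0.11. With the block 4 rose, Elf3 and Elf4 being the others (block adjusted p = 0.00161 and 0.00556). None fell, and none passed in Taz KO against control. Of the genes that regulate Cdx2 in the embryo, 15 of 17 were tested. Tead2 (0.71) and Vgll4 (0.31) rose in double KO, and Yap1, Amotl2 (-1.62) and Rbpj (-0.51) fell, against a list median of 0.06. None of the 15 passed in Taz KO against control (2 rose and 2 fell with the block).

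Of genes that anchor keratin filaments at desmosomes and hemidesmosomes, 10 were tested, and 4 rose and 0 fell in double KO against control, with a median of 0.35: desmoplakin, Dsp (1.46, adjusted p = 0.00566), the desmosomal cadherin Dsg2 (0.80, adjusted p = 0.000845), Perp (0.73, adjusted p = 0.0215) and plectin, Plec (0.51, adjusted p = 0.0162). Plakoglobin, Jup, stood at 34.6, 35.9 and 34.9 FPKM. In Taz KO none of the 10 passed (3 rose with the block). Of 11 epithelial identity genes tested, 5 rose and 1 fell in double KO (9 and 2 with the block), with a median of 0.39. The median of this list was 0.35 in Taz KO against control and -0.06 in double KO against Taz KO. Cldn3 stood at 3.03 ± 0.339 FPKM in control and reached 14.3 ± 1.12 in double KO (2.07), and Esrp2, an epithelial splicing factor (1.08), E-cadherin, Cdh1 (0.43), Cldn7 (0.53) and Esrp1 (0.39) also rose, while Spint1 fell by 0.51. In Taz KO, Cldn3 (0.78) and Esrp1 (0.63) rose (8 rose and 1 fell with the block, beside 908 and 473 of all 11674 tested genes). Cdh1 and Esrp2 lie on chromosome 8, where the median of the 636 tested genes was 0.30 in double KO and 0.35 in Taz KO; its part in their values was not tested.

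Most other keratins were at or near 0. Of 48 other keratin genes 19 were at 0 in every library and 6 reached the level tested. Krt16 rose in double KO against control, from 0.760 ± 0.174 to 1.89 ± 0.189 FPKM (0.93, adjusted p = 0.00371). With Taz KO at 0.904 ± 0.108 FPKM, Krt16 reached the level tested only through double KO, and such a filter favours a rise. Krt42 (14.9, 22.2 and 17.8 FPKM), Krt17 (10.1, 12.8 and 11.0 FPKM) and Krt80 were not called. Krt7, a simple keratin of trophoblast, was at 3.30 ± 1.27, 1.93 ± 1.21 and 1.42 ± 1.04 FPKM; its difference of -1.05 in double KO did not pass (adjusted p = 0.127) and did with the block (adjusted p = 0.000941). Of 8 other intermediate filament genes tested, Nes, encoding nestin, rose from 3.32 ± 0.114 to 13.3 ± 1.24 FPKM (1.85), and none fell (5 fell with the block). Vimentin, Vim, was at 28.6, 22.3 and 20.6 FPKM.

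**Figure D5:**
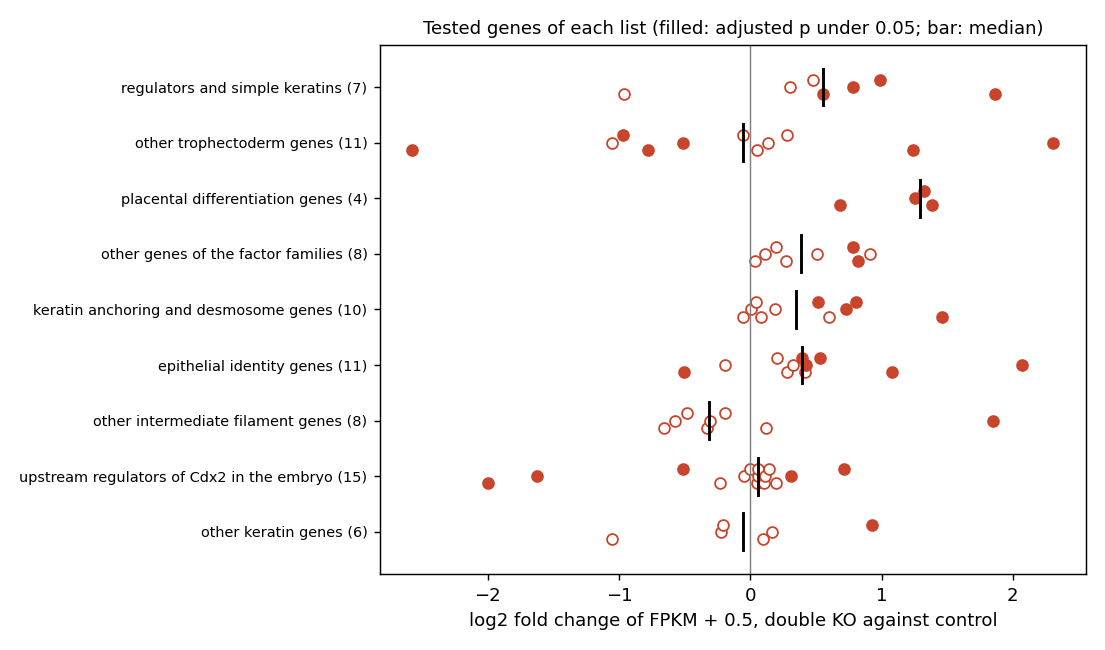
Log2 fold change in double KO against control (x axis) of each tested gene, by gene list (y axis, number tested in brackets); filled points passed the adjusted threshold of 0.05 and black bars mark list medians. The 10 keratin anchoring genes have 4 filled points, all above 0, and the 11 other trophectoderm genes have 2 above and 4 below.

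Markers of other cells were read in the same libraries. The summed level of the 10 trophectoderm genes was 73.8 to 81.7 FPKM in control, 77.0 to 99.9 in Taz KO and 123 to 174 in double KO, to which Krt8 and Tfap2c gave most. That of embryonic stem cell markers was 5096 to 5456, 4267 to 4627 and 2686 to 2937 FPKM, in large part Dppa5a, at 3261, 2575 and 1139 FPKM. Of 8 placental trophoblast markers 5 were at 0 in each group, with sums of 0.704 to 2.69, 0.434 to 0.896 and 0.329 to 0.813 FPKM. Primitive endoderm markers summed to 2.86 to 4.03, 1.84 to 4.47 and 2.19 to 4.35 FPKM, with Ttr at 0. Fibroblast markers summed to 2.15 to 4.12, 1.77 to 5.89 and 3.17 to 10.9 FPKM, mostly Thy1, with Dcn, Lum and Postn at 0. Stratified epithelium markers summed to 82.7 to 98.2, 102 to 119 and 158 to 196 FPKM, mostly Sfn (82.7, 101 and 167 FPKM), with Ivl at 0 and Krt5, Krt14 and Trp63 at 0.0580 FPKM or less in each library. The part of these sums in the levels of the 10 genes was not tested.

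Genes that varied most like each tested gene over the 9 libraries were found by Pearson correlation of log2(FPKM + 0.5), as a description; the points share groups and library numbers. Gata2 ran closest to Chic1 and Renbp (r = 0.991 for both), Krt8 to Cnksr3 (0.986) and Gpnmb (0.985), and Tfap2c to mt-Nd6 (0.994) and Nr6a1 (0.990). Gpnmb, a lysosomal and melanosomal glycoprotein, went from 1.37 FPKM in control and 1.30 in Taz KO to 17.1 in double KO. Tfap2a was nearest to Ptp4a1 (0.974) and Smyd2 (0.971), Eomes to Gm8399 (0.956) and Nfatc4 (0.906), Krt18 to Rap1gds1 (0.963), and Krt19 to Ccdc136 (0.958) and Camta1 (0.947). None of the 10 trophectoderm genes was among these genes.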

How the data were processed

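Poly(A) RNA of 9 libraries was sequenced. The FPKM values were deposited by the authors, with no role stated for the tools that the submitters' processing notes list: DESeq2, HTSeq 0.6.1 and TopHat2 2.1.1, beside the build mm10. Annotation, gene lengths, strand setting and filters: not given in the sources used here. Levels of different genes depend on those lengths, and reads of overlapping genes may be split. Values of each of the 24621 genes above 0 were whole multiples of 1 read within 0.001, which gave reads per library. Relative depth matched a median-of-ratios size factor, so the columns share a scale set by the typical gene.

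Genes with a mean of at least 1 FPKM were fitted on log2(FPKM + 0.5) with limma 3.58.1 (R 4.3.3) over all 9 libraries, with a trend in the prior variance, two-sided, and with Benjamini-Hochberg adjustment over 11674 genes at 0.05. The procedure was tested on simulated data, which held no effect shared by library number and so cannot speak to that part of the spread. Intervals of summed reads are exact and, like the limit of 3 reads for a count of 0, cover counting error only. Overlaps and positions come from GENCODE M21.

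The genes, lists and tests were chosen with earlier results of these data known. From each list, genes called in at least 1 comparison were named, at most the 4 with the smallest adjusted p in each, with the 4 other keratins of highest mean and the 2 genes most correlated with each tested gene (1 of these is not reported here); Atp1b1, Tead4, Elf3, Elf4, Vgll4, Jup, Cldn7, Spint1 and Vim were added after their values were seen. Alternatives covered the pseudocount, filter, scaling, voom on the recovered reads, the libraries fitted and each library left out. Groups share replicate numbers. Deviations from group means correlated at 0.192 to 0.711 in the 9 same-number pairs and at -0.688 to 0.394 in the 18 others. The labels do not say what a number shares. The main fit and the permutation tests did not pair libraries by number, and the replicate block was the alternative that did. No 2 replicates agreed within sampling noise (chi-square per gene 5.04 or more).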

Additional observations from a re-analysis of the deposited data

How the results depend on the processing

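The 2948 genes called in double KO against control became 6112 with the replicate block, the 150 of Taz KO against control 1381 (908 rose and 473 fell, against 84 and 66), and the 1620 of double KO against Taz KO 4947. Without the libraries numbered 2 the counts were 4889, 423 and 4277. With only the 6 libraries compared, 88 were called in Taz KO against control and 635 in double KO against Taz KO, and of the 7 tested genes 1, Tfap2c, was called between the knockouts. With no filter 1 of the 10, Gata3, was called in Taz KO against control, beside 146 of 24621 genes. Leaving out each library in turn gave 1505 to 3568, 11 to 230 and 482 to 2648 genes, and 3 to 5, 0 to 0 and 1 to 3 of the 7. The lowest counts were without control library 1 (1505 and 11) and without Taz KO library 1 (482), the highest without Taz KO library 2 (2648) or double KO library 2 (230). Scaling to library totals gave 1005 rises and 717 falls in double KO against Taz KO, against 750 and 870. That scaling and the omission of the libraries numbered 2 were chosen after seeing the data.

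Signs turned for values that did not pass: without the libraries numbered 2, Krt18 was at -0.14 in Taz KO against control and Eomes at -0.11 between the knockouts. With a library left out, Krt18 ran from -0.0038 to 0.78 in double KO and from -0.22 to 0.31 in Taz KO against control, and from -0.061 to 0.72 between the knockouts, where Eomes ran from -0.044 to 0.13 and Krt19 from -0.93 to 0.41. The block, run on the 7 tested genes and not on Cdx2, Gata3 and Elf5, changed no call other than those of Eomes and Tfap2a given above. Of the alternatives for single genes 359 kept direction and side of the threshold, 21 lost a call, 6 gained one and 13 changed sign. The cause was not tested. Depth limits Cdx2, Gata3 and Elf5, each at 53 reads or fewer per group.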
